A study of Homo sapiens with 6 samples.

Results

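D cyclins, their kinase partners CDK4 and CDK6, the inhibitors of these kinases and their substrate RB1 form the machinery by which a cell leaves G1. The genes described here are CCND1, CCND2, CCND3, CDK4, CDK6, CDKN1A, CDKN1B, CDKN2C, CDKN2D and RB1, 10 in all. They were chosen by symbol, as the G1 entry genes around CDKN1A and CCND1. The study named this pair on the basis of its own comparison of these libraries, so the choice was not independent of them. Of the 10, 9 were among the 13449 genes of the deposited table and CCND2 was not. The samples are SK-MEL-28 cells, an established human cutaneous melanoma line, transfected by Lipofectamine either with an siRNA against the long noncoding RNA DANCR or with a control siRNA that has no intended target, and harvested 3 days later. Poly(A) RNA was sequenced from 3 control and 3 siDANCR libraries, all of a single cell line, so both groups share its mutations and the transfection itself. Groups and replicate numbers come from the labels, and whether the replicates were separate cultures is not stated in them. The study's methods name 3 biological replicates.

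The table holds 1 measured level per gene, the authors' mean of normalised counts over all 6 libraries, control and siDANCR together. It has 0 columns of values per library. The remaining columns are the authors' own comparison of the groups, which was not used here. A change of a gene between control and siDANCR cells is therefore not given below, and no level carries an SD. The mean counts summed to 15059759 over the table, with a median of 322.5 per gene and a lowest value of 23.1. Levels of genes are compared as mean normalised count per kb of the canonical transcript, and where undivided counts stand side by side they are named as counts, which also grow with transcript length. This level could be computed for 13029 genes, whose median was 111.6 counts per kb, with quartiles of 45.24 and 269.7. A percentile below is the place of a gene's level among those 13029.

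In background, mitogen signals raise D cyclins, which bind CDK4 or CDK6. The active kinases phosphorylate the retinoblastoma protein RB1, which then lets go of E2F transcription factors, and genes of S phase are transcribed. Inhibitors of the INK4 family (CDKN2 genes) bind CDK4 and CDK6 alone, whereas those of the CIP/KIP family (the CDKN1 genes) bind cyclin and kinase complexes and mainly restrain CDK2. In melanoma this pathway is a well known site of inherited and acquired alterations, above all in CDKN2A, CDK4 and CCND1.

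The sequences of the siRNAs are shown because pairing of bases 2 to 8 of a strand, its seed, with a 3′ untranslated region can act on messages other than the intended one. Capitals mark the seed, and each strand is written 5′ to 3′ as in the study's list of oligonucleotides. Which of the DANCR siRNAs the sequenced cells received is not in the labels, and siDANCR1 is the one named in the study's source data.

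siDANCR1 sense: cCCUUCAGuuacaauagga
siDANCR1 antisense: uCCUAUUGuaacugaaggg
siDANCR2 sense: gAACCGUUaucuaggcgcu
siDANCR2 antisense: aGCGCCUAgauaacgguuc
siControl sense: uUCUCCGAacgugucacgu
siControl antisense: aCGUGACAcguucggagaa

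The labelled cell type was checked against markers. Of 8 melanocytic markers, 7 were listed and all 7 were above the upper quartile of genes, among them the melanosome protein PMEL at 11535 counts per kb, the neural crest factor SOX10 at 6839 and MITF at 2179. TYRP1, a melanin enzyme, was not listed. Of 16 markers of keratinocytes, fibroblasts, immune and endothelial cells, 4 were listed, namely KRT10, LUM, CD68 and VWF, at 134.7, 241.6, 39.78 and 2.749 counts per kb. The defining markers KRT5, KRT14, COL1A1, COL1A2, PTPRC, CD3E and CDH5 were not listed. PECAM1 had no gene model in the annotation and could not be looked up. DANCR itself stood at 107.6 counts per kb, near the median gene, in a mean that takes in the 3 knockdown libraries. That place rests on a canonical transcript of 3959 bases, and other lengths were not tried for DANCR. In undivided counts, DANCR at 425.9 was above the median of 322.5. Its level in each library, the check of the labels that a knockdown allows, could not be had.

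CCND1, the D cyclin most often raised in tumours, was the most abundant of the 9 listed genes by a wide margin. Its authors' mean was 23613.9 normalised counts and its level was 5572 counts per kb, at percentile 99.4. It ranked 82 by level per kb and 40 by mean count. CCND1 exceeded the next of the 9, CDKN2C, 5.85-fold in level. The distance to whichever gene came next ran from 4.97-fold to 15.8-fold over the length definitions. In the authors' mean it thus reached the range of the melanocyte genes SOX10 and S100B, at 6839 and 4416 counts per kb. The gene (ENSG00000110092) occupies chromosome 11 from 69455924 to 69469242 (GRCh37, plus strand). Its canonical transcript has 5 exons and 4238 bases, of which the last and longest exon holds 79.2%.

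CCND3, the D cyclin best known from lymphocytes, was the other D cyclin with a value. Its authors' mean was 1654.0 counts and its level 816.4 counts per kb, at percentile 92.7. CCND1 stood 6.83-fold above CCND3 per kb and made up 87.2% of the summed level of the pair. CCND3 (ENSG00000112576, chromosome 6, 41902672 to 42018095, minus strand) has 13 annotated protein-coding transcripts, so the length used matters. With the union of all annotated exons the ratio became 17.28 and with the coding length 14.13, CCND1 being the higher in each.

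CCND2, the third D cyclin (ENSG00000118971, chromosome 12, 4378937 to 4414519, plus strand), was not listed. Every gene in the table carries an adjusted p-value, and on what grounds others are missing was not tested, so no level, fold or limit can be given for CCND2 here. Its canonical transcript of 6493 bases is longer than that of CCND1.

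The catalytic partners stood below both listed D cyclins per kb of canonical transcript, although CDK6 passed CCND3 by coding length and without length scaling. CDK6 had an authors' mean of 3180.6 counts and CDK4 of 296.4, a 10.7-fold difference in counts. Per kb the levels were 272.7 for CDK6 and 158.9 for CDK4, a ratio of 1.72, because the canonical CDK6 transcript has 11663 bases and that of CDK4 has 1865. CDK6 lay at percentile 75.3 and CDK4 at 60.7. The levels of CCND1 and CCND3 together were 6388 counts per kb against 431.6 for both kinases, a ratio of 14.8 between transcripts, which says nothing of the proteins. It ranged from 7.27 without length scaling to 16.4 with the median length of protein-coding transcripts.

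The order of the kinases turned with the length used. By the median length of protein-coding transcripts, CDK6 stood at 0.71 of CDK4, and by the number of positions at which a read of 150 bases lies within 1 exon at 0.85, while by coding length it stood at 9.98. Which of the pair was more abundant is thus not settled by these data. CDK6 (ENSG00000105810, chromosome 7, 92234235 to 92465887, minus strand) has 88.9% of its transcript in 1 exon, mostly 3′ untranslated region of 10219 bases. CDK4 (ENSG00000135446, chromosome 12, 58141510 to 58149796, minus strand) has 8 exons, 5 of them shorter than a read. Exons of CDK4 also share 1369 bases with TSPAN31 on the opposite strand, itself listed at 265.5 counts. The libraries mark strand, but no source used here says whether counting used it, so the CDK4 value is uncertain.

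**Figure D1:**
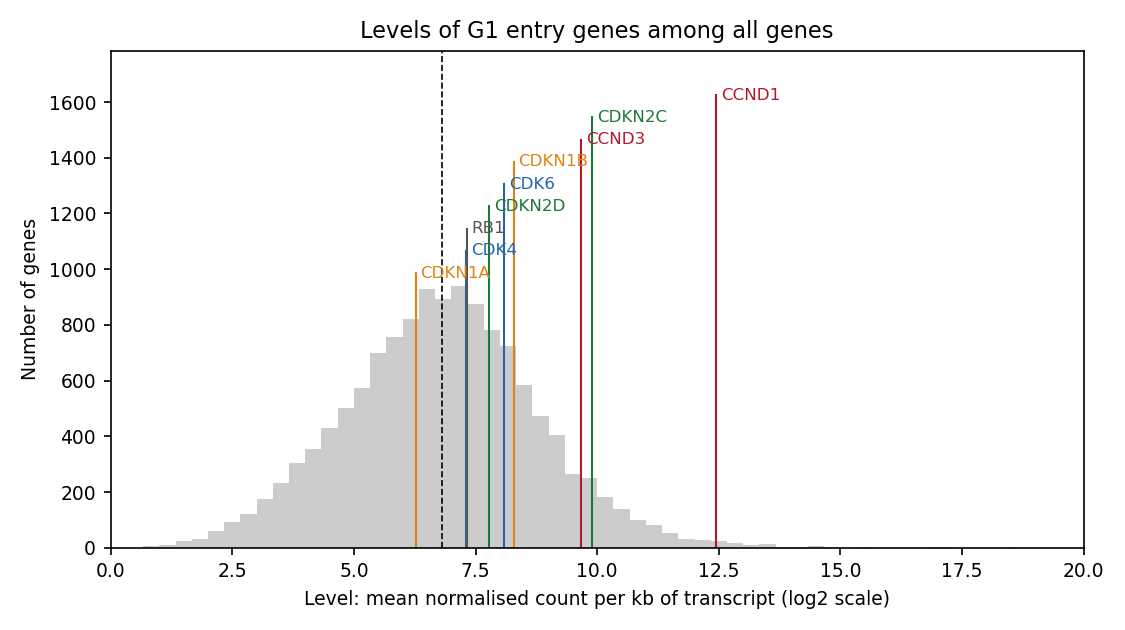
Number of genes (y axis) by level in mean normalised count per kb on a log2 scale (x axis) for 13029 genes (grey bars), with the median as a dashed line and a coloured line at the level of each of 9 G1 entry genes. The height of a coloured line only separates the labels. CCND1 lies far to the right of the others, at 5572 counts per kb, and CDKN1A alone lies left of the median of 111.6.

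The INK4 inhibitors CDKN2C and CDKN2D, which encode p18 and p19, were both above the median gene. CDKN2C had an authors' mean of 947.0 counts over a short transcript of 995 bases and a level of 951.8 counts per kb, at percentile 94.1, the second highest of the 9. CDKN2D had a mean of 311.5 counts and a level of 218.6 counts per kb, at percentile 69.7. CDKN2C was 4.35-fold above CDKN2D per kb, a ratio that shrank to 1.49 with the longest annotated transcript of each gene and to 1.52 with the union of exons, and stayed above 1 in all 8 alternatives. CDKN2C (ENSG00000123080) lies on chromosome 1 from 51426417 to 51440306 on the plus strand and CDKN2D (ENSG00000129355) on chromosome 19 from 10677136 to 10679735 on the minus strand. Both canonical transcripts have 2 exons, none shorter than a read. An unnamed gene on the opposite strand, not listed, shares 617 exonic bases with CDKN2C.

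The other INK4 genes belong to the wider list. CDKN2A, which encodes p16 and, in another frame, p14ARF, was listed at 632.0 counts per kb, at percentile 90.4, and CDKN2B, which encodes p15, at 84.76. CDKN2A transcripts of both frames share exons, so the value is not that of p16 alone. A CDKN2A message of this level says nothing of its protein or sequence.

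The CIP/KIP inhibitors lay on either side of the median gene. CDKN1B, which encodes p27, had an authors' mean of 751.3 counts and a level of 311.6 counts per kb, at percentile 78.5. CDKN1A, which encodes p21, an inhibitor known from cell cycle arrest, had a mean of 163.4 counts and a level of 77.18 counts per kb, at percentile 38.7. It was the lowest of the 9 and the only one below the median gene, at 69.2% of the median level. By coding length it was above the median, at percentile 56.3. The distance from CCND1 to CDKN1A, the highest and the lowest level of the 9, was 72.2-fold, and the span of the 9 was up to 144-fold without length scaling.

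CDKN1B stood 4.04-fold above CDKN1A. The ratio was 2.41 with the longest transcripts and 1.49 with the union of exons, and CDKN1B was the higher in all 8 alternatives. CDKN1A (ENSG00000124762, chromosome 6, 36644237 to 36655114, plus strand) has 3 exons and 2117 bases, and CDKN1B (ENSG00000111276, chromosome 12, 12838432 to 12875303, plus strand) has 3 exons and 2411 bases. CDKN1C, the third gene of the family, which encodes p57, was lower still in the table at 34.2 counts per kb.

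RB1, the substrate at the end of this chain, had an authors' mean of 759.7 counts and a level of 159.3 counts per kb, at percentile 60.8. The gene (ENSG00000139687) lies on chromosome 13 from 48877880 to 49173572 on the plus strand, and 23 of its 27 exons are shorter than a read. Counting only positions at which a read lies within 1 exon raised RB1 from place 7 to place 4 of the 9. The related pocket proteins RBL1 (p107) and RBL2 (p130) stood at 69.96 and 84.14 counts per kb. RB1 was 2.28-fold above the first and 1.89-fold above the second. RB1 and CDK4 stood side by side at 159.3 and 158.9 counts per kb, and without a spread per library they cannot be ordered.

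**Figure D2:**
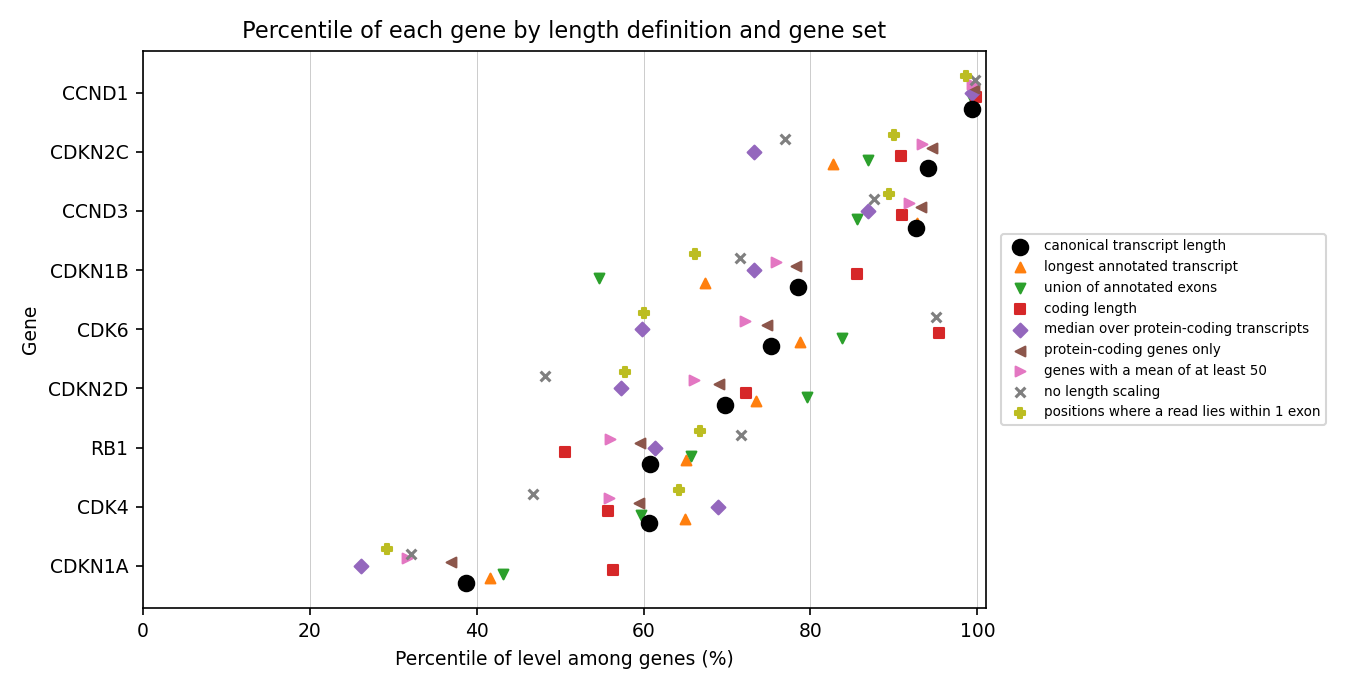
Percentile of level (x axis, %) of 9 G1 entry genes (y axis) under the canonical transcript length (black circles) and 8 alternatives of length or gene set (coloured marks, offset in height). CCND1 stays between 98.6 and 99.8, whereas CDK6 ranges from 59.8 to 95.4.

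By canonical transcript length most of the listed genes stood above the median gene. Of the 9 listed, 8 were above the median level of all genes, against 21 of 36 listed genes of the wider G1 list, and 5 were above the upper quartile, against 11 of 36. The median level was 272.7 counts per kb for the 9 and 178.9 for the 36, and the median percentiles were 75.3 and 64.0. These counts are a description, and no test was run. The choice of length moved the count above the upper quartile, which was 2 with the median length of protein-coding transcripts and 3 with positions at which a read lies within 1 exon. Those 2 counts are near the share of all genes that lies above the upper quartile by definition. Without length scaling, 6 of the 9 were above the median. CCND1 kept the first place in all 8 alternatives, and CDKN1A the last in 7, the exception being the coding length, where RB1 was last. CCND3 took place 2 or 3 and CDKN2C a place from 2 to 4. Below them the places crossed, CDK6 ranging from 2 to 7, CDKN1B from 4 to 8, CDKN2D and CDK4 from 5 to 8, and RB1 from 4 to 9.

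The wider list held 38 other genes of G1 control, of which 36 were listed and CDK3 and CDK7 were not. CDK2, the kinase of the later E-type and A-type cyclins, had the highest level of these, at 3336 counts per kb and percentile 98.9. It stood 12.2-fold above CDK6 and 21.0-fold above CDK4, and CCND1 stood 1.67-fold above CDK2. With other lengths these ratios ran from 2.35 to 18.7, from 13.0 to 25.6 and from 1.22 to 3.19, all in the same direction. The CDK2 gene lies within the annotated span of the highly abundant PMEL on the opposite strand (24524.3 counts) and shares 89 exonic bases with it. It also shares 565 exonic bases with an unnamed gene on the opposite strand, not listed. The part of reads from these genes in the CDK2 value was not tested. PCNA, the replication clamp and an E2F target, followed at 1112 counts per kb, then E2F1 at 715.1, CDKN2A at 632.0, CKS2, a small partner of the kinases, at 480.3, and TFDP1, the dimer partner of E2F factors, at 465.0.

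At the other end were CCNE2 at 11.39 counts per kb, MNAT1, an assembly factor of the CDK-activating kinase, at 25.79, CDKN1C at 34.2 and FBXO4, a ubiquitin ligase subunit linked to cyclin D1 turnover, at 34.33. The CCNE2 mean of 30.44 counts lay near the lowest value listed, 23.1. CCNE2 also shares 1629 exonic bases with INTS8 on the opposite strand, itself listed at 163.7 counts. CCNE1 stood at 37.77 counts per kb, so CCND1 was 148-fold more abundant than this E-type cyclin, with a range of 48.6 to 445 over the lengths tried. All of these are single means over both groups, and cells in different phases of the cycle were not separated.

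**Figure D3:**
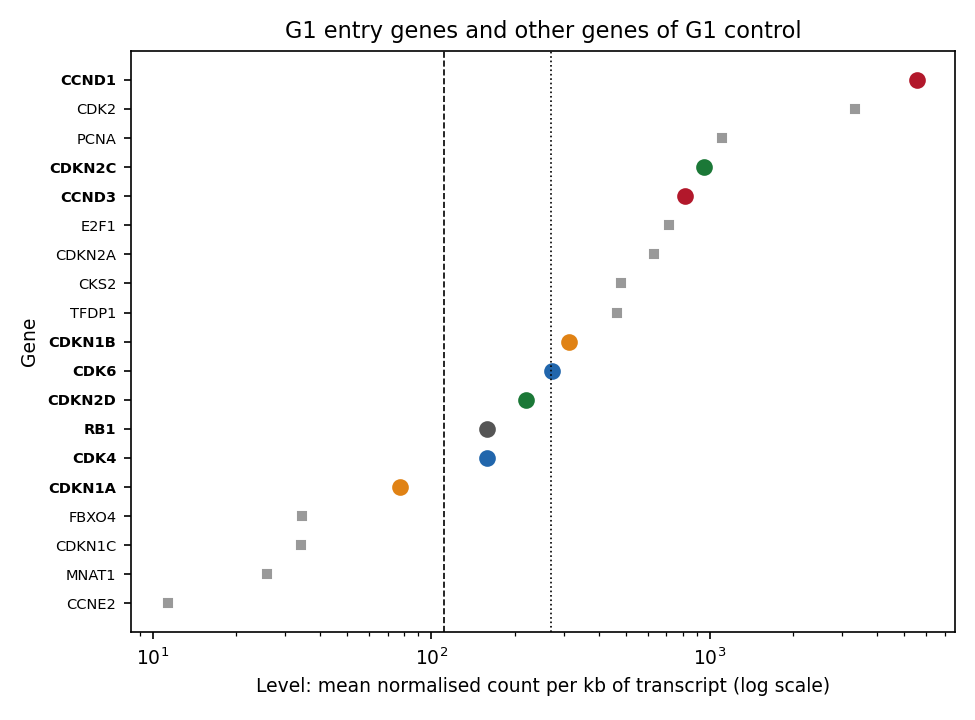
Level in mean normalised count per kb on a log scale (x axis) of 9 G1 entry genes (large coloured circles, bold names) and 10 other genes of G1 control (small grey squares), the 6 highest and 4 lowest of the wider list, ordered by level (y axis). The dashed line is the median and the dotted line the upper quartile of 13029 genes, at 111.6 and 269.7, and CCND1 and CDK2 stand apart at the top at 5572 and 3336.

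Seed matches of the sense strands of both DANCR siRNAs and of both control strands were looked for in the canonical 3′ untranslated region of each of the 10 genes, CCND2 included. A match is the reverse complement of bases 2 to 8 of a strand, read on the message. The shares given beside the matches are over 11355 listed genes with such a region. Matches to the siDANCR1 sense strand, CTGAAGG, lie in CCND3 (2) and in CDK6 (3), against 16.1% of those genes with at least 1. CDKN2D holds 1 match, AACGGTT, to the siDANCR2 sense strand, against 2.09%. There were 0 matches to either control strand in the 10 genes, against 2.09% of the 11355 genes for its sense strand and 3.04% for its antisense strand. With a shorter seed of 6 bases, 1 gene (CDK6) matched the siControl sense strand, 5 matched the siDANCR1 sense strand and 2 the siDANCR2 sense strand. The share of all genes with a match of 6 bases was not computed, so whether these counts are many or few cannot be said. The stretches around the matches are printed in the direction of the message, with the 7 matched bases in capitals.

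CCND3, chr6:41903570-41903596, minus strand: acatctaagcCTGAAGGggcgtctgtt
CCND3, chr6:41903043-41903069, minus strand: agctttgctgCTGAAGGctcattttaa
CDK6, chr7:92243889-92243915, minus strand: catttgttcaCTGAAGGtgattcacca
CDK6, chr7:92236928-92236954, minus strand: gaaagtacaaCTGAAGGcagaaagtgt
CDK6, chr7:92236217-92236243, minus strand: aggtttttatCTGAAGGttaaagggca
CDKN2D, chr19:10677478-10677504, minus strand: cagccacctaAACGGTTcagtttcttc

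The CDK6 region, with 3 matches, is also the longest of the 10, at 10219 bases, and the CCND3 region, with 2, has 988. These matches come from the reference sequence, and their part in any level was not tested. For the DANCR siRNAs they cover the sense strands only. By name, the antisense strand is the one meant to pair with the target message, so these are not matches of that strand. Which strand acted in the cells was not tested.

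The 10 genes share no common base composition. The GC content of the canonical transcripts ran from 37.1% in RB1 and 39.7% in CDK6 to 61.2% in CDKN2D, with 57.3% in CDKN1A and 50.3% in CCND1. Several overlap a gene on the other strand. CCND1 shares 497 exonic bases with LTO1, which was listed at 385.6 counts, a small number beside the 23613.9 of CCND1, and CDKN1A shares 146 with DINOL, which was not listed. CDKN1B, CDKN2D and RB1 share none. Reads of overlapping genes cannot be told apart here.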

How the data were processed

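Per the labels, Trim Galore 0.4.4, Bowtie 1.1.2 and DESeq2 were used by the authors with hg19 (GRCh37). The counting tool, the gene annotation, the use of strand and the handling of reads across exon junctions are, in the sources used here, not given. The study's methods give paired reads of 150 bases and a minimum depth of mapped reads, but the total of each library was not used here. The authors deposited a signal per gene, the mean over 6 libraries of counts scaled for depth. The 5 other columns hold their fold change, its standard error, Wald statistic, p-value and adjusted p, and were not used. A second sheet repeats 98 of the genes, picked by those columns, and was not used either. The edgeR test planned for counts per library was not run, since there are 0 such columns.

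IDs were matched without version to GENCODE v44 lifted to GRCh37 (13161 of 13449). Lengths were those of the Ensembl canonical transcript, and 420 genes had none. Level is mean count per kb. Seed matches were counted after the stop codon, overlaps allowed. Coordinates are GRCh37. Scripts, checked on planted seed sites and ranks, used Python 3.11.15, pandas 2.3.3, numpy 2.4.6 and matplotlib 3.10.9. The genes and lists were chosen with earlier results of these data known. Named from the wider list were the 6 highest and 4 lowest levels and genes not listed. CDKN2B, CCNE1, RBL1 and RBL2 were named outside that rule, after their values were seen, as close relatives. Protein sequences were not used here, and some values, and the seed matches of the antisense strands of the DANCR siRNAs, are not reported here.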

Additional observations from a re-analysis of the deposited data

How the results depend on the processing

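No paired analysis was possible because the table gives only means over all libraries, and for the same reason no test, omission of a library or other normalisation could be run. The 8 alternatives change the length or the set of genes. All were set at the start except the count of positions at which a read of 150 bases lies within 1 exon, which was added after the data had been seen. The cause of the shifts is the length itself, by construction. CCND1 over CCND3, 6.83 in the report, was 17.28 with the union of exons, 14.13 with coding length, 10.27 with the median length of protein-coding transcripts and 14.28 without length scaling. CDK6 over CDK4, 1.72 in the report, was 2.71, 9.98, 0.71 and 10.73 in the same order and 0.85 with positions within 1 exon, so it turned under 2 of the 8. CDKN1B over CDKN1A was 2.41 with the longest transcript and 1.49 with the union of exons. CDKN2C over CDKN2D was 1.49, 1.52 and, with the median length, 1.84. Of the 9 genes, 2 (median length) and 3 (positions within 1 exon) were above the upper quartile in place of 5. CCND1 over the next gene was 15.81 (union) and 10.27 (median length), the span of the 9 genes 126.9 (median length) and 144.5 (no scaling), and D cyclins over kinases 7.99 (coding) and 7.27 (no scaling). The count above the median and both counts of the wider list stayed within 1.5 times. A seed of 6 bases (2 to 7) gave matches to the siDANCR1 sense strand in 5 genes in place of 2, to the siDANCR2 sense strand in 2 in place of 1 and to the siControl sense strand in 1 in place of 0. No share over all genes was computed for this seed, so these counts have nothing to be set against.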
